A study of Mus musculus with 2 samples.

Results

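The hypoxia and glycolysis genes were taken as 34 members named by symbol, listed with earlier results of these data known, out of 32285 genes counted. All 34 were found and all 34 were measured in the main class of cells. They comprised 15 glycolysis genes (glucose uptake, the enzymes of the pathway and lactate export), 3 regulators of the pathway's flux, 15 stress genes known as targets of the hypoxia-inducible factor (HIF), and Hif1a, which encodes its oxygen-regulated subunit. The study compared squamous tumours of mouse dorsal skin by droplet single-cell RNA sequencing, with 1 library per group. The first, Ctrl-D, came from mice with both Eed alleles floxed, painted with ethanol as solvent and then with the carcinogen DMBA. The other, Eed iKO-D, came from Eed flox/flox mice that also carried K14CrERT2, a tamoxifen-activated Cre recombinase driven by the keratin promoter of basal epidermal cells, and received hydroxytamoxifen at 20 mg/ml on 4 days from postnatal day 50 before DMBA. DMBA was applied weekly for up to 20 weeks in both groups, and tumours were taken at 5 months of age. Cre and tamoxifen differed together between the groups and cannot be told apart, the Cre acts only in keratinocytes and their descendants, and the number of animals behind each library was not given in the sources used here. With 1 library per group there was no replicate check and no test, so every interval below covers counting error only.

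HIF is a pair of proteins that switches genes on when oxygen is short. Its alpha subunit is hydroxylated in oxygen by prolyl hydroxylases such as Egln1 and Egln3, then degraded, so that its targets are quiet in well-oxygenated tissue. Those targets include the glucose transporter and most enzymes that turn glucose into lactate, and genes for pH control, mitophagy and collagen modification. Tumour epithelium often runs this programme, both where blood supply is poor and downstream of growth signals.

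The libraries differed in more than genotype. Ctrl-D held 7393 cells after filtering, with a median of 13037 UMIs (counted molecules) per cell, and Eed iKO-D held 21484 with a median of 3191. Gm42418, a transcript that overlaps ribosomal RNA, took a median of 0.35% of a cell's UMIs in the control library and 34.8% in the other, and 58.5% of the Eed iKO-D cells fell in clusters that could not be named. At least 3 markers of each of 2 lineages were present in 14.1% of Ctrl-D and 96.5% of Eed iKO-D cells, and without such cells only 142 of the 3079 Eed iKO-D epithelial-like cells described below were left. Their part in the class comparisons was not tested beyond that alternative, in which 26 of 34 members were higher in epithelial-like cells. No share of all genes is given for that alternative, so this count cannot be set against one. Only 40 of the kept barcodes occurred in both libraries. The results therefore rest on named classes, first of all the epithelial-like cells (5447 of Ctrl-D, 3079 of Eed iKO-D), whose clusters each raised 10 to 16 of the epithelial markers. Within this class Gm42418 still took 0.51% against 3.65% of UMIs, ribosomal protein genes 27.5% against 16.7% and mitochondrial genes 1.63% against 4.01%, and their part in the differences below was not tested. Eed itself stood at 53.0 and 47.6 CPM (UMIs per 1000000 UMIs of the class) in epithelial-like cells, and since counts of transcript 3' ends need not lie in the deleted part, this does not check the deletion.

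HIF binds DNA at a short core, ACGTG, and a related one, GCGTG. RefSeq promoters (build GRCm38.p6) were matched for 31 of the 34 members, all but Ndrg1, Bnip3l and Plod2. In the 250 bases before a start site, on either strand and counting the overlapping palindrome CACGTG as ACGTG, at least 1 ACGTG stood in 19 of these 31 genes (61.3%) and in 18.49% of all 27025 genes of the table. Either core stood in 28 of 31 (90.3%) and in 41.5% of all genes. The start was found in an annotated transcript of the gene for 39 of the 44 member windows. It was not found for the windows that hold ACGTG in Hif1a, Ldha and Pgam1. These matches are descriptions of sequence, not binding sites. The promoters below were picked because their genes carry the contrast described further on: Slc2a1 and Slc16a3 as the entry and exit of the pathway, Pgk1 and Tpi1 as enzymes of its middle, and Bnip3 and Ddit4 as stress genes. Each runs 5′ to 3′ up to the base before the start, with both cores in capitals on either strand.
Slc2a1, chr4:119108495-119108744, plus strand: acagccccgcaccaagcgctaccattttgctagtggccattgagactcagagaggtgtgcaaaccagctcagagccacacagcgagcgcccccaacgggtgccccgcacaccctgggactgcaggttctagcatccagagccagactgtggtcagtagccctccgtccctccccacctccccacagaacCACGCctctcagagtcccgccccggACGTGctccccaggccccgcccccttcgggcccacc
Slc16a3, chr11:120948817-120949066, plus strand: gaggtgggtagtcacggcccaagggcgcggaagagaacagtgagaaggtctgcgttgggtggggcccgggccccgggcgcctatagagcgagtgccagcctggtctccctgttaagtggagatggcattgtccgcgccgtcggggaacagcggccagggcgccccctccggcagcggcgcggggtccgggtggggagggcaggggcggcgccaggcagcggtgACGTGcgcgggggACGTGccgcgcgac
Pgk1, chrX:106186850-106187099, plus strand: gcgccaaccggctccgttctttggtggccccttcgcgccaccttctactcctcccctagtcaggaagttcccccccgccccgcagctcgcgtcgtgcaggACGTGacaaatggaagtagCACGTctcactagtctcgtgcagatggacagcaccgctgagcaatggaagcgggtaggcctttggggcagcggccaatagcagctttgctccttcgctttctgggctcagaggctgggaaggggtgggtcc
Tpi1, chr6:124814159-124814408, minus strand: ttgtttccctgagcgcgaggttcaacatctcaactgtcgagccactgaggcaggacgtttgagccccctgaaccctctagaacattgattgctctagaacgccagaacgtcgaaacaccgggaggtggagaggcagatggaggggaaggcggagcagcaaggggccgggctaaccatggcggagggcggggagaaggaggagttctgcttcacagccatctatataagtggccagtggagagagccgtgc
Bnip3, chr7:138909507-138909756, minus strand: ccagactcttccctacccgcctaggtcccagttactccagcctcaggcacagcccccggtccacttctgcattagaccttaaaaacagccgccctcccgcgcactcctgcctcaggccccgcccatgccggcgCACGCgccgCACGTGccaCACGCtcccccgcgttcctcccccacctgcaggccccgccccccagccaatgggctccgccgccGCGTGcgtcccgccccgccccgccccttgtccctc
Ddit4, chr10:59951771-59952020, minus strand: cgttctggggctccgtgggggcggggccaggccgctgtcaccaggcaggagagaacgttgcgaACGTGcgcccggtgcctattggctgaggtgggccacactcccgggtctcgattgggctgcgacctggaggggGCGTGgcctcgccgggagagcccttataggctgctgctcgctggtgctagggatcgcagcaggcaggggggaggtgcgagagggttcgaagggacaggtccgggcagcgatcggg
Slc16a3 holds a pair of ACGTG cores close to its start, beginning at positions -27 and -14, and Slc2a1 holds 1 at -36. Pgk1 holds a pair at -150 and -131, Ddit4 1 at -187, and Bnip3 the palindrome CACGTG near -108. The Tpi1 window holds neither core. These picks do not stand for the whole pathway. Of its other genes, Hk2 holds ACGTG in at least 1 window, and so do Aldoa, Pgam1, Pkm and Ldha, whose gaps are smaller. No ACGTG stands in the windows of Hk1, Pfkl and Pfkp, whose gaps are wide, or of Gpi1, Gapdh and Eno1.

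In epithelial-like cells 27 of the 34 members were at least 1.5 times higher in Eed iKO-D, and 0 were lower by this fold. Of all 19549 genes measured in these cells, 38.6% were higher by this fold and 16.9% lower, and the median log2 ratio was 0.33. Relative to that median, 20 of 34 members were at least 1.5 times higher and 0 lower, beside 26.6% and 26.1% of all genes. The median log2 ratio was 0.74 over the 15 glycolysis genes, 1.35 over the 3 regulators and 1.80 over the 15 stress genes. Levels are given below with Ctrl-D first and Eed iKO-D after it. Summed over their members, the glycolysis genes stood at 4566 and 7906 CPM, and the stress genes at 1261 and 3128 CPM. The plot of levels by gene shows the width of each gap.

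**Figure D1:**
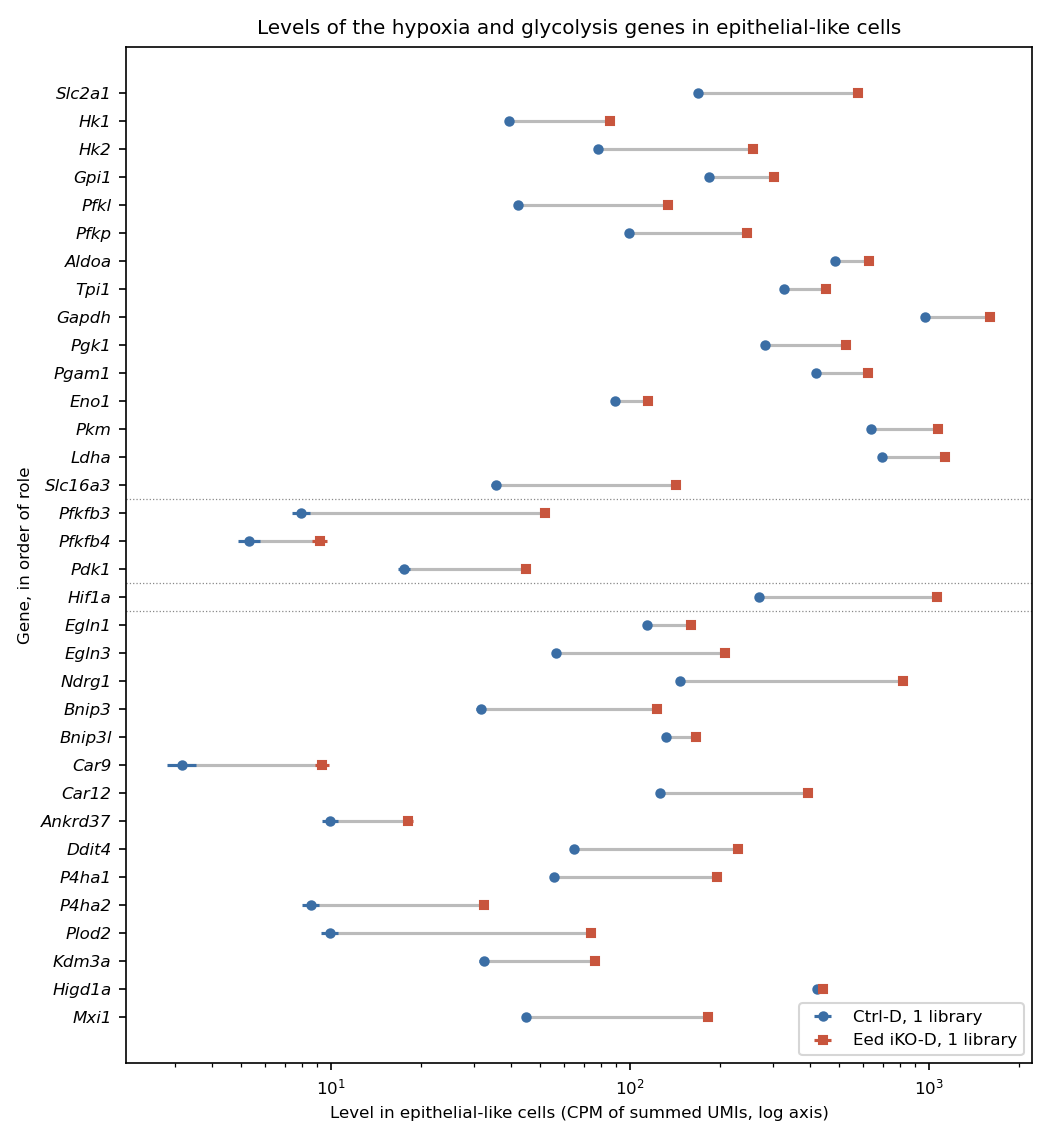
Level of each of the 34 genes in epithelial-like cells, as CPM of summed UMIs on a log axis, in Ctrl-D (circles) and Eed iKO-D (squares), 1 library each; bars are 95% Poisson intervals, mostly hidden by the points, and dotted lines part glycolysis genes, regulators, Hif1a and stress genes. Each Eed iKO-D point lies to the right of its Ctrl-D point, from Higd1a, at 424 and 443 CPM, to Plod2, at 9.90 and 74.0 CPM.

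At the entry of the pathway the gaps were wide. Slc2a1, the main glucose transporter of keratinocytes, stood at 169 CPM in Ctrl-D and 580 CPM in Eed iKO-D, a ratio of 3.43 (95% interval 3.37 to 3.49). Hk2, the inducible hexokinase that traps glucose in the cell as its phosphate, stood at 78.2 and 258 CPM, 3.30 times (3.22 to 3.38). Hk1, the constitutive hexokinase, was the smaller of the pair, with 39.5 and 85.9 CPM and a ratio of 2.18 (2.10 to 2.26). Pfkl and Pfkp are subunits of phosphofructokinase, which commits the sugar to breakdown. Pfkl stood at 42.1 and 133.6 CPM, 3.18 times (3.07 to 3.28), and Pfkp at 99.2 and 247 CPM, 2.49 times (2.43 to 2.54). Between these steps Gpi1, which turns glucose phosphate into fructose phosphate, stood at 184 and 303 CPM, 1.65 times (1.62 to 1.67).

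The enzymes of the middle and lower pathway differed less. Aldoa, which splits the sugar, stood at 487 and 629 CPM, 1.29 times (1.28 to 1.31), and Tpi1, which interconverts the products, at 327 and 453 CPM, 1.39 times (1.37 to 1.40). Gapdh, often used as a reference gene, stood at 973 and 1604 CPM, 1.65 times (1.64 to 1.66). Pgk1, the first step that yields ATP, was the widest of this stretch, with 283 and 528 CPM and a ratio of 1.87 (1.84 to 1.89). Pgam1, the mutase that follows, had 420 and 624 CPM, 1.48 times (1.467 to 1.501). Eno1 had 89.0 and 115 CPM, 1.29 times (1.26 to 1.33), but its transcript end matches the near-copy Eno1b over 397 bases at 99.5% identity, so its count is uncertain. Pkm, pyruvate kinase, had 642 and 1069 CPM, 1.67 times (1.65 to 1.68), and Ldha, which turns pyruvate into lactate, 698 and 1134 CPM, 1.62 times (1.61 to 1.64). Relative to the median of all genes in these cells, 6 of the 15 glycolysis genes were at least 1.5 times higher, Slc2a1, Hk1, Hk2, Pfkl, Pfkp and Slc16a3, and none of the enzymes from Aldoa to Ldha was.

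At the exit the gap was wide again. Slc16a3, the transporter that exports lactate from strongly glycolytic cells, stood at 35.5 and 142.6 CPM, 4.01 times (3.87 to 4.16). The 3 regulators were all higher. Pfkfb3 makes the small sugar phosphate that activates phosphofructokinase, and it stood at 7.96 and 52.0 CPM, 6.54 times (6.07 to 7.04). Its relative Pfkfb4 stood at 5.32 and 9.16 CPM, 1.72 times (1.56 to 1.91). Pdk1, a kinase that holds pyruvate back from the mitochondrion, stood at 17.6 and 45.0 CPM, 2.56 times (2.43 to 2.70).

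Hif1a stood at 269 CPM in Ctrl-D and 1064 CPM in Eed iKO-D, a ratio of 3.95 (3.901 to 4.003). HIF1A is known to be set largely by protein stability, which these counts do not measure. An antisense gene, Gm15283, overlaps Hif1a on the other strand, and it stood at 47.4 and 201 CPM in the same cells. Whether counting used strand was not given in the sources used here, so how far reads of the pair were kept apart was not checked. The same holds for Pfkp with Pitrm1, at 25.4 and 40.8 CPM, and for Tpi1 with Spsb2, at 7.33 and 2.32 CPM, both scarcer than the member they overlap.

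Of the 15 stress genes 12 were at least 1.5 times higher, and Bnip3l, Egln1 and Higd1a were not. Ndrg1, a stress protein of differentiating epithelium, stood at 148 and 816 CPM, 5.53 times (5.44 to 5.63). Plod2, P4ha1 and P4ha2 hydroxylate collagen chains. Plod2 had the widest ratio of all members, with 9.90 and 74.0 CPM, 7.48 times (7.00 to 7.99). P4ha1 stood at 55.8 and 195 CPM, 3.49 times (3.395 to 3.597), and P4ha2 at 8.55 and 32.5 CPM, 3.80 times (3.535 to 4.097). These 3 are also fibroblast genes, so the level of fibroblast RNA in the epithelial-like cells was measured. The 10 fibroblast markers summed to 71.2 and 419 CPM, with 0 of 10 at 0 in either, which is 0.80% of their level in Eed iKO-D fibroblast-like cells, while Plod2 in Eed iKO-D epithelial-like cells stood at 53.7% of its fibroblast-like level, P4ha1 at 75.5% and P4ha2 at 31.2%.

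Among the genes of pH, mitophagy and growth control, Car12, a membrane carbonic anhydrase, stood at 126 and 394 CPM, 3.13 times (3.07 to 3.19). Car9, the carbonic anhydrase most used as a hypoxia marker, was scarce in both libraries, with 3.18 and 9.36 CPM, 2.95 times (2.60 to 3.34). Bnip3, a mitophagy receptor, stood at 31.6 and 122.8 CPM, 3.88 times (3.74 to 4.03), whereas its relative Bnip3l had 132 and 166 CPM, 1.26 times (1.23 to 1.29). Ddit4, an inhibitor of mTORC1, stood at 64.8 and 229.9 CPM, 3.55 times (3.46 to 3.65). Mxi1, which opposes MYC, stood at 44.8 and 182 CPM, 4.05 times (3.93 to 4.18), and Kdm3a, a histone demethylase, at 32.4 and 76.5 CPM, 2.36 times (2.27 to 2.45).

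The prolyl hydroxylases that mark HIF for degradation differed from each other. Egln3 stood at 56.6 and 208 CPM, 3.67 times (3.56 to 3.77), and Egln1 at 114 and 160.4 CPM, 1.40 times (1.37 to 1.44). Ankrd37, a small ankyrin protein, had 9.96 and 18.1 CPM, 1.82 times (1.69 to 1.96), and overlaps the more abundant antisense gene Ufsp2. Higd1a, a mitochondrial protein induced by low oxygen, barely differed, at 424 and 443 CPM, 1.05 times (1.03 to 1.06).

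The epithelial-like cells of the libraries were spread unequally over clusters, so the genes were compared again inside the 4 clusters that held at least 50 cells of each. Cluster 8, led by Lama3 and Hmga2, held 49.7% of the Eed iKO-D and 1.12% of the Ctrl-D epithelial-like cells. Cluster 0, led by stefin genes and Chil4, held 16.8% and 32.8%. Cluster 6, led by Krt15 and Lgr5, held 3.77% and 29.1%, and cluster 9, led by Sprr1b and Krt6b, held 14.1% and 1.63%. For 21 of the 34 members the ratio over the whole class was above that in every 1 of these clusters, including 11 of 15 glycolysis genes, and it was below all of them for 0. By the median of the 4 log2 ratios, 19 members were at least 1.5 times higher and 1 was lower, beside 38.2% and 8.63% of 12050 genes measured in all 4. Members higher and lower numbered 22 and 0 in cluster 0, beside 41.5% and 11.5% of its genes, and 15 and 2 in cluster 6, beside 30.8% and 18.4%. They numbered 18 and 1 in cluster 8, beside 31.1% and 15.7%, and 20 and 1 in cluster 9, beside 56.2% and 9.59%, so that the share of members in cluster 9 was near that of all genes.

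**Figure D2:**
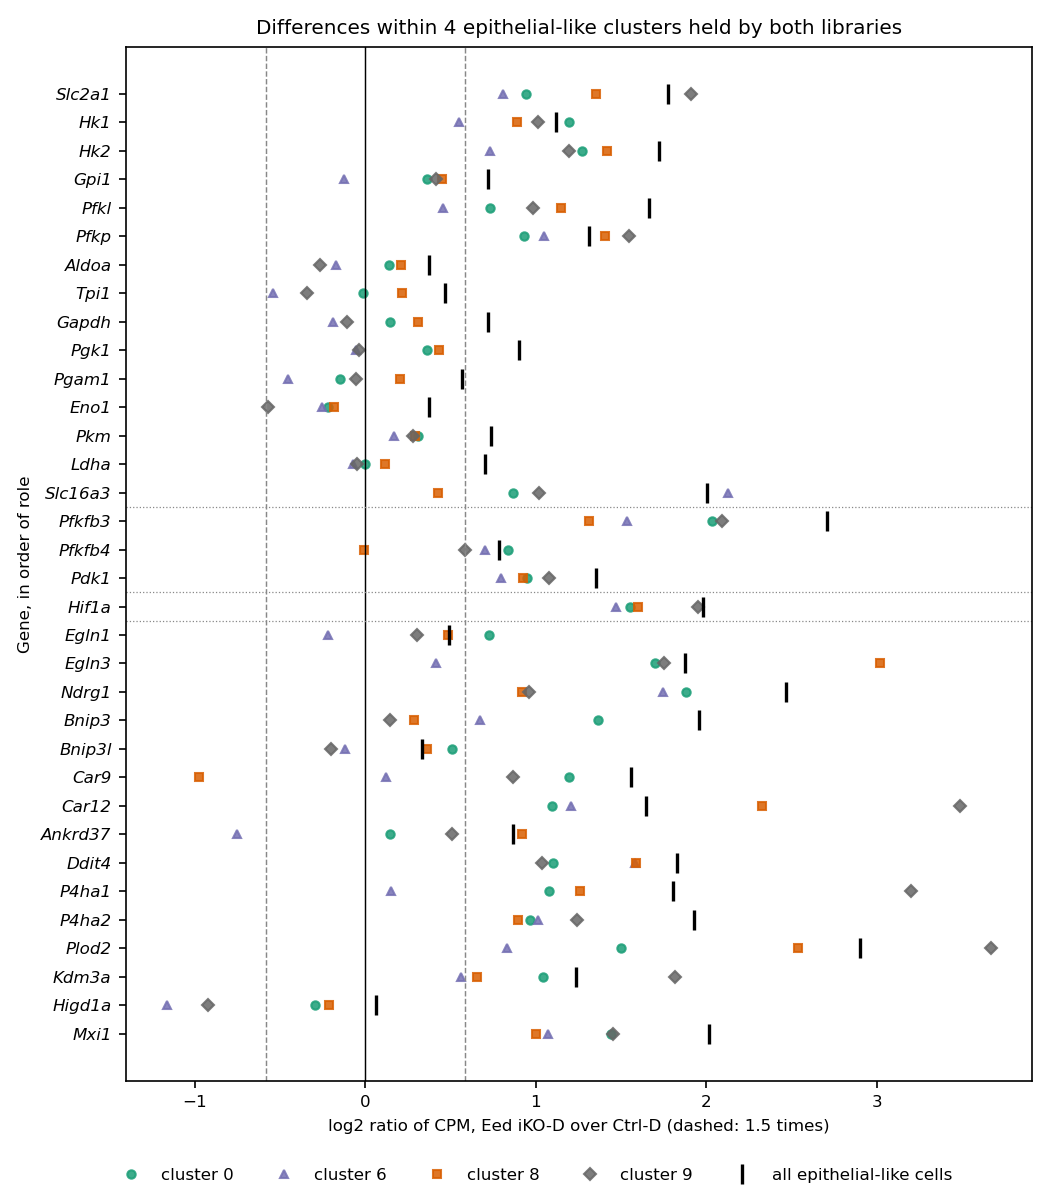
log2 ratio of CPM, Eed iKO-D over Ctrl-D, for each gene in 4 epithelial-like clusters, each with 50 or more cells per library (symbols) and over all epithelial-like cells (black bars), with dashed lines at 1.5 times. From Aldoa to Ldha no symbol passes the right dashed line, while all symbols of Slc2a1, Hk2, Pfkp, Pfkfb3, Pdk1, Hif1a, Ndrg1, Car12 and Plod2 do.

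Inside clusters the transporters, hexokinases and phosphofructokinase subunits were mostly higher in Eed iKO-D and the enzymes of the middle and lower pathway differed less, before gene length is considered. Slc2a1 was at least 1.5 times higher in 4 of 4 clusters, with 241 and 463 CPM in cluster 0, 86.8 and 152 in cluster 6, 255 and 654 in cluster 8 and 129 and 486 in cluster 9. Hk2 and Pfkp were higher by this fold in 4 of 4 as well, with median log2 ratios of 1.23 and 1.23. Hk1, Pfkl and Slc16a3 were higher in 3 of 4, with medians of 0.95, 0.86 and 0.94. Each of the other 9 enzymes, Gpi1, Aldoa, Tpi1, Gapdh, Pgk1, Pgam1, Eno1, Pkm and Ldha, was higher by this fold in 0 of 4. Their medians ran from -0.24 for Eno1 to 0.39 for Gpi1, and Ldha, the lactate-making step, had 884 and 882 CPM in cluster 0 and 1203 and 1305 CPM in cluster 8. Gapdh differed more between clusters than between libraries, since it stood at 581 and 510 CPM in cluster 6 and at 1485 and 1840 CPM in cluster 8.

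Hif1a was at least 1.5 times higher in 4 of 4 clusters, with log2 ratios of 1.47 to 1.95. It stood at 357 and 1047 CPM in cluster 0, 189 and 525 in cluster 6, 361 and 1096 in cluster 8 and 224 and 866 in cluster 9. The same 4 of 4 held for 6 of the 15 stress genes, Ndrg1, Car12, Ddit4, P4ha2, Plod2 and Mxi1, and for the regulators Pfkfb3 and Pdk1. Together 12 of 34 members (35.3%) were higher in all 4 clusters, beside 13.4% of all genes, and 0 members were lower in all 4, beside 2.43%. Egln3, P4ha1 and Kdm3a were higher in 3 of 4. Egln3 ranged widely, from 37.5 and 49.7 CPM in cluster 6 to 28.4 and 233 CPM in cluster 8.

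Other stress genes differed less inside clusters. Bnip3 was higher in 2 of 4, Egln1 in 1 and Bnip3l in 0. Car9 was higher in 2 and lower in 1, with 21.1 and 10.9 CPM in cluster 8, and Ankrd37 was higher in 1 and lower in 1. Higd1a was lower by 1.5 times in 2 of 4, with 203 and 90.7 CPM in cluster 6 and 1244 and 655 CPM in cluster 9. Cluster 19, led by Arg1 and held almost only by Eed iKO-D (419 of 424 cells), had stress genes at 3148 CPM in sum, with Car12 at 835 CPM and Hif1a at 1288 CPM. Markers of other cell types were present in the shared clusters, and their part in these ratios was not tested. In cluster 6 the 12 macrophage markers summed to 4753 and 4177 CPM, which is 92.2% and 16.6% of their level in macrophage or monocyte-like cells of the same library, with 4 and 1 of the 12 at 0. In cluster 0 they summed to 1496 and 1122 CPM, or 29.0% and 4.47%. In cluster 9 the 10 neutrophil markers summed to 8913 and 1620 CPM, or 12.9% and 2.98% of their own-class level, with 7 and 0 of the 10 at 0. The macrophage and neutrophil sums were not split by gene. In Ctrl-D cells of cluster 9 the neutrophil sum came only from the few markers not at 0. The other sums do not show whether most of a list or a few of its genes carry them. Keratinocytes could also express such genes. Fibroblast markers were at most 1.48% of their own-class level in these clusters, at 119 and 778 CPM in cluster 6.

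The length of a gene moved with the ratio in these libraries. Over all genes in epithelial-like cells, the median log2 ratio went from -0.08 in the shortest of 4 equal length bins to 0.17, 0.40 and 0.70 in the following bins, with edges at 8.08, 21.1 and 52.4 kb. Among the genes at 100 CPM or more it went from -0.65 to 0.82. Glycolysis genes had a median length of 16.6 kb, stress genes 31.6 kb and the regulators 40.5 kb, and within the pathway Aldoa, Tpi1, Gapdh and Pgam1 are the shortest, at 3.71 to 6.74 kb, while Hk1, Hk2 and Pfkp span 111, 49.4 and 69.0 kb. Measured against genes of the same length bin, 23 of 34 members were at least 1.5 times higher, beside 25.8% of all genes, and the medians were 0.62 for glycolysis genes and 1.41 for stress genes. Ddit4 at 2.17 kb, with a log2 ratio of 1.83, and Slc16a3 at 12.4 kb, with 2.004, are short genes with wide gaps. On this scale the gap between Hk1 (0.42) and Gapdh (0.80) was reversed, so the order of these genes over the whole class depends on the scale. The length effect was also present inside the shared clusters, where the median of all genes in the longest bin was 0.91 in cluster 0, 0.65 in cluster 6, 0.48 in cluster 8 and 1.45 in cluster 9. Pfkp, in that bin, had log2 ratios of 0.93, 1.05, 1.40 and 1.55 in these clusters, close to its bin in clusters 0 and 9, and Hk1, at 0.55 and 1.01 in clusters 6 and 9, lay below its bin there. Gapdh lay above the median of the shortest bin in clusters 0, 6 and 8 and below it in cluster 9. Among genes at 100 CPM or more, as Gapdh is, the shortest bin had medians of -0.60, -0.74, -0.41 and -0.61 in these clusters. Gapdh, with log2 ratios of 0.15, -0.19, 0.31 and -0.11, lay above that median in 4 of 4. The contrast between these enzymes inside clusters therefore also depends on the scale, whereas Slc2a1 and Hif1a lay above the median of their bin in 4 of 4 clusters.

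**Figure D3:**
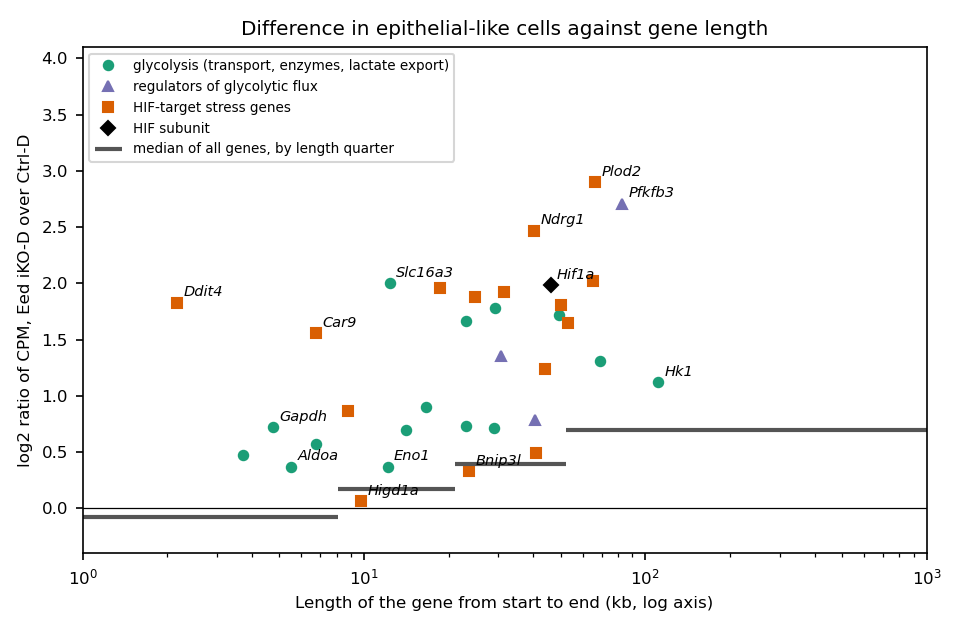
log2 ratio of CPM in epithelial-like cells, Eed iKO-D over Ctrl-D, against the length of each member gene in kb on a log axis, coloured by role; horizontal bars are the medians of all genes in each of 4 length bins, -0.08, 0.17, 0.40 and 0.70. Ddit4, Car9 and Slc16a3 lie far above the bar of their bin, while Higd1a and Bnip3l lie below theirs.

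To compare single cells, each epithelial-like cell was thinned to 1500 UMIs, which left out 108 Ctrl-D and 7 Eed iKO-D cells. Glycolysis genes then took a mean of 0.412% of a cell's UMIs against 0.666% in Eed iKO-D (0.408% and 0.665% without thinning). Stress genes took 0.121% and 0.319% (0.125% and 0.317% without thinning). The upper quartile of Ctrl-D cells reached 0.533% for glycolysis genes, below the Eed iKO-D median of 0.6%, and 0.200% for stress genes, below the Eed iKO-D median of 0.267%. Pearson's r between the thinned shares of the lists was 0.28 over 5339 Ctrl-D cells and 0.32 over 3072 Eed iKO-D cells. A share of 0.121% of 1500 UMIs is very few UMIs per cell, and counting error at that depth lowers r. Cells of a library also share depth and free RNA, so r does not measure how closely the lists move together.

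**Figure D4:**
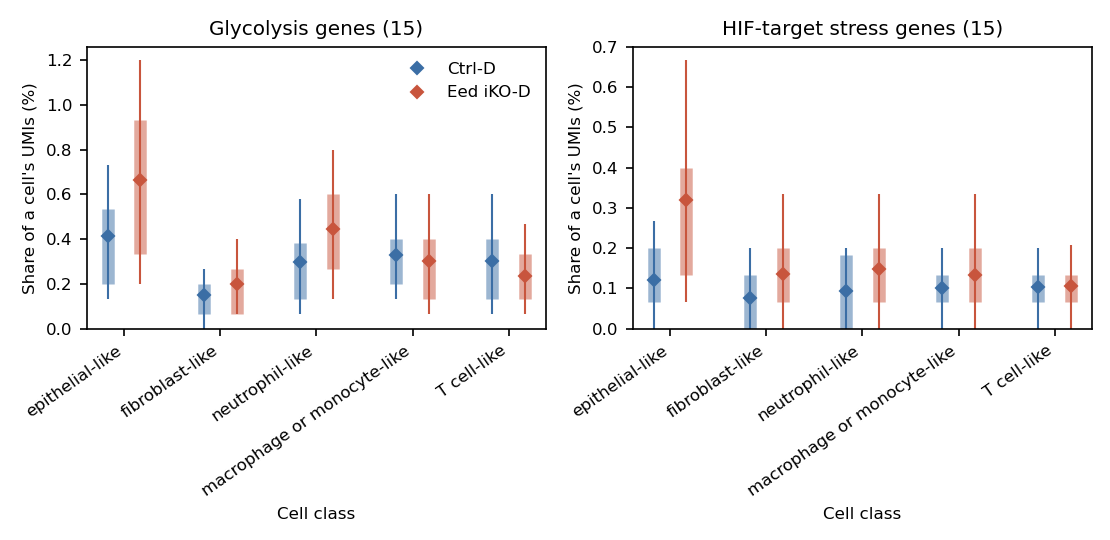
Share of a cell's UMIs (%) in the 15 glycolysis genes (left) and the 15 stress genes (right) after thinning to 1500 UMIs, by cell class and library; diamonds are means over cells, thick bars the middle 50% and thin lines the 10th to 90th percentile of cells. The widest gap is in epithelial-like cells, with means of 0.412% and 0.666% on the left and 0.121% and 0.319% on the right. In neutrophil-like cells thinning left out 105 Ctrl-D cells and 1 Eed iKO-D cell. The deeper 34 Ctrl-D cells are therefore shown beside 1134 Eed iKO-D cells.

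Other genes of oxygen sensing were listed alongside. Of 14 further genes of the HIF machinery, 5 were at least 1.5 times higher and 2 lower (median log2 ratio 0.43), shares near the 38.6% and 16.9% of all genes. Relative to the median of all genes the split was 2 higher and 4 lower. Epas1, the second alpha subunit, stood at 10.3 and 34.8 CPM and Arnt, the partner of both, at 30.6 and 55.8 CPM, while Elob and Eloc, parts of the ligase that degrades HIF, had 594 and 371 CPM (Elob) and 162 and 100.6 CPM (Eloc). Of 28 other HIF targets, 17 were higher and 2 lower (median 0.81), or 13 and 3 relative to all genes. Pgf, a placental growth factor, had 2.51 and 50.4 CPM, 20.1 times. Lox, a collagen cross-linker, had 3 and 818 UMIs, a ratio of 200 (68.2 to 972), but at 0.70% of its level in Eed iKO-D fibroblast-like cells it lay at the level of the fibroblast markers and is read as background. Among genes with at least 50 UMIs, Angptl4, at 17.1 and 10.9 CPM, and Rora, at 117 and 94.8 CPM, had the lowest ratios, while Ppp1r3c, the other gene counted as lower, had only 29 and 4 UMIs and is named here after its values were seen.

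Of 25 measured glycolysis and lactate genes outside the 34, 6 were higher and 5 lower (median log2 ratio 0.11), beside 38.6% and 16.9% of all genes, or 3 and 9 relative to the median of all genes, beside 26.6% and 26.1%. Slc16a7, a lactate and pyruvate importer, stood at 11.1 and 0.58 CPM, and Mpc1, a part of the carrier that brings pyruvate into mitochondria, at 134 and 53.9 CPM, whereas Pgam2, a muscle form of the mutase, was scarce in both libraries, at 0.11 and 0.61 CPM. Of 7 pentose phosphate genes 3 were higher and 1 lower, or 2 and 2 relative to all genes, among them G6pdx at 17.8 and 42.6 CPM, Pgd at 41.4 and 84.2, Taldo1 at 154.8 and 127.5, and Pgls at 256 and 122.5 CPM.

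In epithelial-like cells, genes of mitochondrial respiration differed by where they are encoded. Of 28 nuclear genes of oxidative phosphorylation, 20 were at least 1.5 times lower and 1 higher (median log2 ratio -0.82), and 23 were lower relative to all genes. Of all genes 16.9% were lower and 38.6% higher, or 26.1% and 26.6% relative to their median. The same shares apply to the other lists of this paragraph. Among all genes at 100 CPM or more the shortest length bin had a median of -0.65, and the part of length in this list was not tested. Cox5a stood at 721 and 302 CPM and Ndufa1 at 273 and 122.8 CPM, while Ndufs1, at 39.6 and 46.1 CPM, and the scarce Cox4i2, at 0.15 and 0.34 CPM, were highest. All 13 mitochondrially encoded genes were higher (median 1.48), and 12 relative to all genes, from mt-Cytb, at 2363 and 3782 CPM, and mt-Nd4, at 1112 and 2538 CPM, to mt-Nd6, at 12.3 and 69.4 CPM, and mt-Atp8, at 57.6 and 386 CPM. Of 16 genes of the TCA cycle 1 was higher and 3 were lower (median -0.31), the latter near the 16.9% of all genes. Relative to all genes 9 were lower, beside 26.1%. Sdhb stood at 112 and 70.5 CPM, Sdhd at 109 and 54.3, Suclg2 at 47.6 and 71.1 and Ogdh at 82.1 and 125.8 CPM. The split of respiration genes was not confined to epithelial-like cells. Nuclear genes were lower for 19 of 27 in T cell-like, 21 of 28 in fibroblast-like and 22 of 28 in macrophage or monocyte-like cells. Of all genes 19.1%, 22.8% and 27.7% were lower. All 13 mitochondrially encoded genes were higher in these classes, beside 21.0%, 28.1% and 30.6% of all genes. In neutrophil-like cells 7 of 28 nuclear genes were lower and 4 higher, and 3 of 13 mitochondrially encoded genes were higher. There 27.0% of all genes were lower and 34.5% higher, so none of these shares was above that of all genes. The cause was not tested.

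A further list held 15 stress and immediate-early genes that tissue dissociation can induce. In epithelial-like cells 3 of them were higher and 1 lower (median log2 ratio -0.03), beside 38.6% and 16.9% of all genes. Relative to the median of all genes the split was 2 and 4, beside 26.6% and 26.1%. The same shares apply to the list that follows. Hspa1a, at 94.6 and 216 CPM, and Fosb, at 286 and 544 CPM, were highest, and Ier2, at 419 and 193 CPM, and Jund, at 534 and 359 CPM, lowest. Of 12 genes of the integrated stress response 2 were higher and 2 lower (median 0.06), or 0 and 3 relative to all genes, with Trib3 at 4.71 and 8.50 CPM, Sesn2 at 22.2 and 40.0, Slc7a11 at 41.9 and 27.0 and Phgdh at 119 and 71.7 CPM.

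Hif1a was at least 1.5 times higher in Eed iKO-D in 3 of the 5 classes compared, and its ratio was above 1 but under that fold in T cell-like and neutrophil-like cells. Besides the epithelial-like cells it stood at 180 and 480 CPM in fibroblast-like cells, 130.1 and 414 in macrophage or monocyte-like cells, 353 and 509 in T cell-like cells, 1.44 times (1.306 to 1.598), and 400 and 519 in neutrophil-like cells, where the ratio of 1.30 had an interval of 1.04 to 1.64. In Ctrl-D the order from high to low was neutrophil-like, T cell-like, epithelial-like, fibroblast-like and macrophage or monocyte-like, and in Eed iKO-D epithelial-like cells came first. Free keratinocyte RNA bears on these classes. In Eed iKO-D, 8 keratinocyte genes stood at a median of 5.41% of their epithelial-like level in fibroblast-like cells, 7.75% in macrophage or monocyte-like, 15.3% in T cell-like and 22.1% in neutrophil-like cells, against 1.96%, 7.30%, 14.2% and 11.6% in Ctrl-D. A member at no more than 1.5 times the highest of these genes is read as background.

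Fibroblast-like cells (250 and 2414 cells) resembled the epithelial-like cells in direction. There 19 of 34 members were at least 1.5 times higher and 0 lower, beside 28.1% and 22.8% of 17095 genes, with medians of 0.36 for glycolysis genes and 1.28 for stress genes. Slc16a3 stood at 3.47 and 34.9 CPM, 10.1 times (5.10 to 23.4). By ratio Egln3 and Car12 came first, with 1 and 2 UMIs in Ctrl-D, but both were at the level of background, as was Car9. At the other end Bnip3l stood at 132 and 88.9 CPM, 0.67 times (0.60 to 0.76), Higd1a at 115.8 and 101.2 CPM and Egln1 at 52.5 and 54.0 CPM. The remaining 28 members lay between, with log2 ratios from 0.08 for Aldoa to 2.93 for Ddit4.

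In neutrophil-like cells (139 and 1135 cells) 22 of 33 measured members were higher and 2 lower, beside 34.5% and 27.0% of 10909 genes. Ctrl-D held only 202731 UMIs in this class, and in simulated data 42.0% of unchanged genes passed 1.5 times by counting error alone. Ddit4 stood at 24.7 and 112.9 CPM, 4.58 times (1.95 to 14.1). P4ha2 and Egln1 had similar or higher ratios but were at the level of background. Slc16a3 was the lowest, with 913 and 460.4 CPM, 0.50 times (0.43 to 0.59), followed by Pfkfb4, at 74.0 and 45.5 CPM, and Mxi1, at 183 and 129.9 CPM, whose intervals include 1. Ctrl-D neutrophil-like cells held Slc16a3 at a higher level than the other classes of either library.

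Macrophage or monocyte-like cells (128 and 945 cells) had 14 members higher and 5 lower, beside 30.6% and 27.7% of 12940 genes. The regulators were all higher, and Pfkfb3 stood at 57.2 and 169.6 CPM, 2.97 times (2.29 to 3.92). Ddit4 stood at 25.6 and 110.9 CPM, 4.33 times (2.94 to 6.65), and Hif1a had a ratio of 3.18 (2.68 to 3.81), while Plod2, with 0 and 109 UMIs, was at the level of background. Lowest were Higd1a, at 198 and 94.0 CPM, 0.47 times (0.41 to 0.55), Car9, at 10.8 and 5.46 CPM, 0.50 times (0.27 to 1.05), and Eno1, at 74.9 and 40.8 CPM. The glycolysis genes had a median log2 ratio of -0.17 and the stress genes 0.08. Of the 15 genes that tissue dissociation can induce, 9 were higher and 0 lower here. Their median was 0.89, against 0.01 for all genes. It was 0.12 in fibroblast-like, 0.35 in T cell-like and 0.40 in neutrophil-like cells. Their part in the ratios of this class was not tested.

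T cell-like cells (501 and 181 cells) had 5 of 33 members higher and 8 lower, beside 21.0% and 19.1% of 10355 genes. Their glycolysis genes had a median log2 ratio of -0.43 and their stress genes -0.03. Higd1a stood at 228 and 105.7 CPM, 0.46 times (0.39 to 0.55) and at the level of background in Eed iKO-D, Eno1 at 68.8 and 40.0 CPM, 0.58 times (0.43 to 0.79), and Bnip3l at 150.5 and 93.5 CPM, 0.62 times (0.51 to 0.76). Highest were Car12 and Slc2a1, both at the level of background in Eed iKO-D, and Plod2, at 20.3 and 33.5 CPM, 1.65 times (1.08 to 2.53). In this class 13 of 34 members were at that level in Eed iKO-D and 1 in Ctrl-D, and the counts of members higher and lower depended on how cells were chosen, from 0 to 11 higher and from 2 to 22 lower over the alternatives tried.

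**Figure D5:**
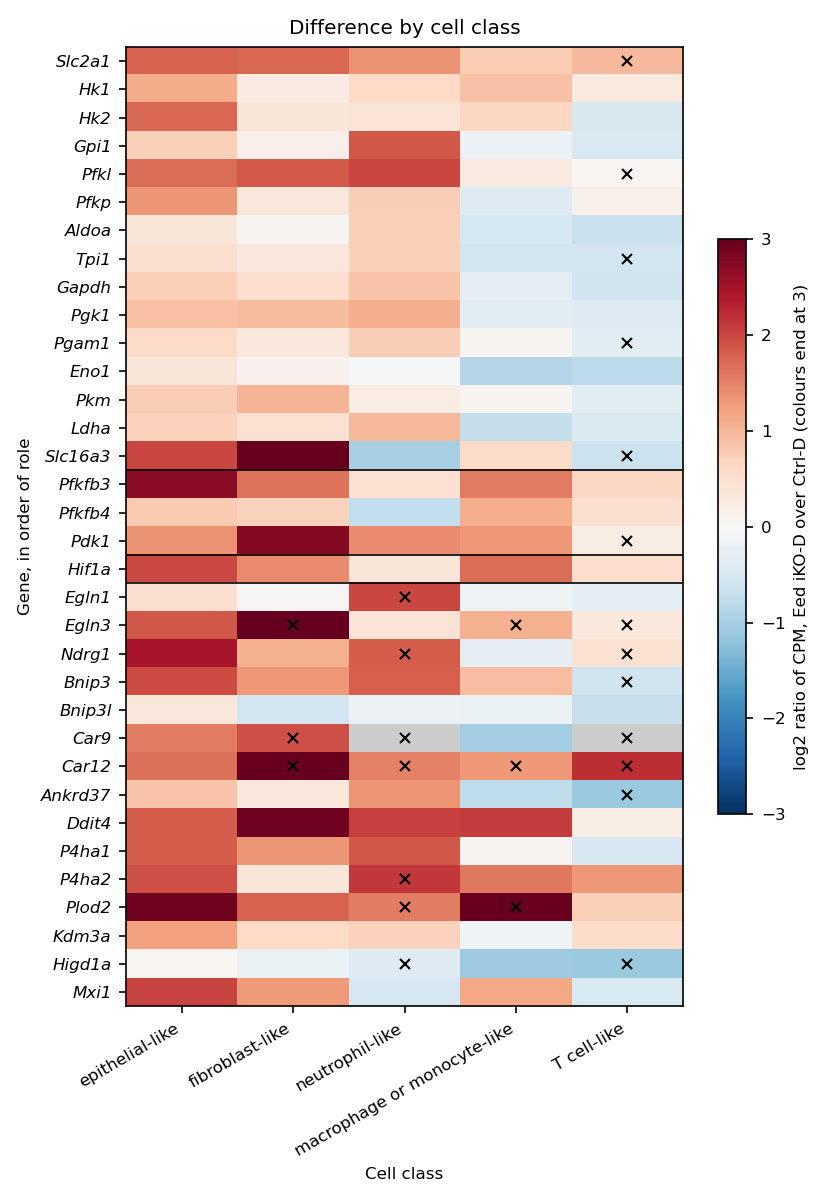
log2 ratio of CPM, Eed iKO-D over Ctrl-D, for each gene (down the side, by role) in the 5 classes with enough cells of each library (columns); red is higher in Eed iKO-D, blue lower, grey not measured, and crosses mark genes at the level of free keratinocyte RNA in Eed iKO-D. Hif1a is red in each column, and the enzymes from Aldoa to Ldha turn from red in epithelial-like and fibroblast-like cells to mostly blue in macrophage or monocyte-like and T cell-like cells.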

How the data were processed

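Single-cell UMI counts per gene and barcode were used as deposited, 1 matrix per library. Cell Ranger made these counts, per the file headers in version 7.1.0, whereas the labels' protocols name 2.1.0 and the submitters' processing notes 8.0, with build mm10. Cells with at least 500 genes and at most 15% mitochondrial UMIs were kept. Scrublet removed 129 doublets in Ctrl-D but called 0 of the Eed iKO-D cells and so failed for that library, whose doublets were not removed. Cells were clustered with scanpy 1.11.5 (2000 variable genes without the listed genes, 30 components, 15 neighbours, Leiden resolution 1.0) into 24 clusters, named from marker lists by a scoring rule set after the data were seen; 6 clusters stayed unnamed. UMIs were summed per class and library and given as CPM with exact Poisson 95% intervals. Ratios carry exact conditional binomial 95% intervals, and log2 ratios used 0.5 added UMI. Genes with at least 20 UMIs over both libraries counted as measured, and 1.5 times as higher or lower. With 1 library per group no test was possible. Intervals cover counting error only.

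Members and lists were chosen with earlier results of these data known. In epithelial-like cells all 34 members are named. In other classes the 3 highest and 3 lowest ratios among members with at least 50 UMIs are named, and in each other list the 2 highest and 2 lowest, except 1 gene that is not reported here. Hif1a by class, Pfkfb3 in macrophage or monocyte-like cells and the cluster examples were chosen after their values were seen. Tested on simulated counts for 19328 genes of the epithelial-like class, 95.5% of intervals held the ratio put in. The alternatives changed the cell filter, doublets, clustering, scaling, fold and count minimum.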

Additional observations from a re-analysis of the deposited data

Results flagged for a closer look

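The summed level of the 15 stress genes was 1790 CPM in the unnamed Eed iKO-D cells, which enter no comparison, and 791.5 CPM in the unnamed Ctrl-D cells, while 8 keratinocyte genes stood at a median of 62.1% of their epithelial-like level in the former. Some members had opposite directions in different classes, and these differences were not tested. The log2 ratio of Gapdh was -0.60 in T cell-like and 0.72 in epithelial-like cells. For Slc16a3 it was -0.65 in T cell-like and -0.99 in neutrophil-like cells, against 2.004 in epithelial-like cells. In Eed iKO-D T cell-like cells Slc16a3 was at the level of background, so its direction there is uncertain. For Ldha it was -0.73 in macrophage or monocyte-like and 0.70 in epithelial-like cells.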

How the results depend on the processing

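No paired analysis was possible because each group has 1 library, and no library could be left out. The count of members higher in epithelial-like cells, 27, ranged over the settings from 18 (4 shared clusters weighted equally) to 28; that weighting gave 1 member lower, and Car9 a log2 ratio of -0.032 in place of 1.56. Leaving out 1 cluster at a time gave 23 (without 8) to 30 (without 0), and glycolysis genes higher, 11, gave 7 and 14. No share of all genes is given beside these counts. The all-gene median, 0.33 with every cluster in, moved to 0.30 without cluster 8 and 0.25 without cluster 0. It was highest, at 0.43, without cluster 6, where 24 members were higher. The most members were thus higher where this median was lowest. Without cells carrying markers of 2 lineages, which left 142 Eed iKO-D epithelial-like cells and no other class to compare, 26 were higher, with no share of all genes given beside them. In that alternative 31 of 39 values moved beyond their counting interval, with 0 reversed. Members lower by the median of shared clusters were 0, not 1, at Leiden resolutions 0.5 and 2.0. In T cell-like cells, members higher and lower, 5 and 8, were 9 and 2 with the stricter cell filter, 8 and 3 at resolution 2.0, 9 and 4 with listed genes in the clustering, 11 and 2 with cells gated by own markers, 8 and 3 without Gm42418, mitochondrial and ribosomal genes in the total, 2 and 2 at 2 times, and 0 and 22 with an epithelial-like profile subtracted. There 3 were higher at 100 UMIs, 2 lower without doublet removal and 5 lower relative to genes of like length. In macrophage or monocyte-like cells, 14 higher became 7 without doublet removal, 9 at resolution 2.0 and 7 with listed genes in the clustering. Their 5 lower became 3 without doublet removal, 1 and 3 at resolutions 0.5 and 2.0, 2 with gating, 3 at 100 UMIs, 2 at 2 times and 8 after subtraction. In neutrophil-like cells 22 higher became 14 at 2 times, and 2 lower became 0 without doublet removal, 1 without Gm42418, mitochondrial and ribosomal genes, 0 at 2 times and 5 after subtraction. In fibroblast-like cells 0 lower became 1 relative to the median of all genes, with equal weights, relative to length and after subtraction. The cause was not tested. Length, subtraction and leaving out clusters of 1 library were chosen after seeing the data. Counting error alone limits neutrophil-like ratios more than those of the other classes.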
